A study of Mus musculus with 4 samples.

Results

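The epidermal growth factor (EGF) family genes described here are 6 ligands, Areg, Ereg, Hbegf, Tgfa, Btc and Nrg1, and 3 receptors, Egfr, Erbb2 and Erbb3. They were chosen by name, 9 of the 25744 genes that could be named in the deposited transcript tables. Their 20 listed transcripts were matched to gene symbols by position on the mouse genome (mm10), and the abundances of a gene's transcripts were summed. The unit is FPKM, a fragment count divided by transcript length and by library size. Testing required 1 FPKM or more in 2 or more of the 4 libraries, which 6 of the 9 genes met. Ereg, Btc and Erbb3 did not, and they are given as values with no test.

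RNA was taken from stromal cells of adult C57BL/6 mouse prostate, sorted as Lin-CD24-CD49f-Sca-1+, that is, without lineage, CD24 and CD49f staining but with Sca-1 on the surface. There were 2 libraries from proximal ducts, which lie next to the urethra, and 2 from distal ducts, which end at the tips of the lobes. The labels number them 2 and 3 in each region, and they are called proximal 2, proximal 3, distal 2 and distal 3 here. The labels do not say whether libraries came from separate animals or what a number marks, so the spread that enters a p-value is that of these libraries alone and may be technical. The steps of the FPKM values of single-transcript genes gave an estimated depth of 28000000 fragments in proximal 2 and 28800000 in proximal 3, against 30100000 in distal 2 and 34000000 in distal 3. Ly6a, which encodes Sca-1, gave 687 FPKM in proximal 2 and 738 FPKM in proximal 3, against 1016 FPKM in distal 2 and 868 FPKM in distal 3. The CD49f gene (Itga6) gave 0.62 and 1.34 FPKM in proximal 2 and 3, against 0.50 and 0.79 FPKM in distal 2 and 3. The CD24 gene (Cd24a) gave 8.06 FPKM in proximal 2 and 54.6 FPKM in proximal 3, against 9.64 FPKM in distal 2 and 19.1 FPKM in distal 3, so its RNA was measured in all 4 libraries of this CD24-negative sort.

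EGF family ligands are made as membrane-anchored precursors, and ADAM proteases cut most of them to release the soluble factor. Amphiregulin (Areg) and TGF-alpha (Tgfa) bind EGFR. HB-EGF (Hbegf), epiregulin (Ereg) and betacellulin (Btc) bind EGFR and ErbB4, and neuregulin 1 (Nrg1) binds ErbB3 and ErbB4. ErbB2 has no known ligand and signals in dimers with the other receptors, and ErbB3 has little kinase activity of its own. In many glands such ligands pass between stroma and epithelium.

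Among these 9 genes, Hbegf and Nrg1 were the most abundant ligands and Egfr the most abundant receptor in all 4 libraries. A further ligand gene of the family, Nrg2, lay above both in proximal 2 and distal 2. Hbegf ranked first among the 9 genes in proximal 2, proximal 3 and distal 3, and Egfr ranked first in distal 2. The Egfr value sums its transcripts, and the longest alone gave 12.8 FPKM in distal 2, below Hbegf at 18.6 FPKM. None of the 6 tested genes passed the test between proximal and distal stroma, where each difference was within the spread of the libraries. That spread includes the difference between library numbers. In a fit with the number as a block, 465 of all tested genes passed, and none of these 6. The smallest adjusted p among the 6 was then 0.0933 (Tgfa, limma). Areg, Hbegf, Tgfa, Nrg1 and Egfr lay higher in both libraries numbered 3 than in both numbered 2; the share of all tested genes with that order was smaller and depended on the scaling. The plot of the 9 genes by library shows these levels.

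**Figure D1:**
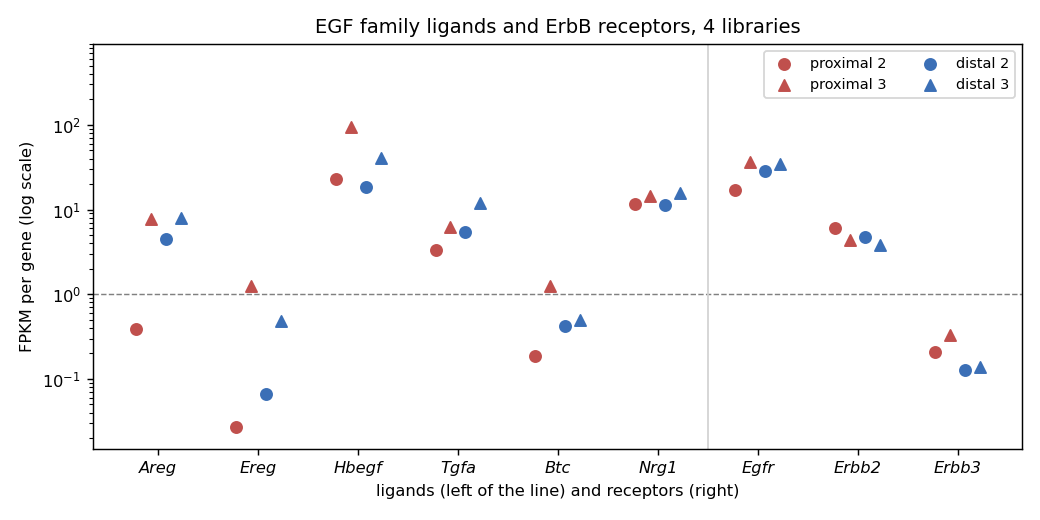
FPKM per gene (log scale) of the 6 ligands and 3 receptors in the 4 libraries; red marks proximal and blue distal stroma, circles mark libraries numbered 2 and triangles those numbered 3, and the dashed line is 1 FPKM. Triangles lie above circles for all 6 ligands and Egfr, by little for Btc in distal stroma. Proximal and distal values overlap for every gene but Erbb3.

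Hbegf encodes HB-EGF, a heparin-binding ligand of EGFR and ErbB4. The gene lies on chromosome 18 at 36504927 to 36515805 (minus strand; here and below positions are on GRCm38, from GENCODE M21). It gave 23.2 FPKM in proximal 2 and 94.5 FPKM in proximal 3, against 18.6 FPKM in distal 2 and 40.2 FPKM in distal 3. Proximal 3 was the highest, distal 3 was next, and the regions overlapped. Proximal stroma averaged 58.9 ± 50.4 FPKM and distal stroma 29.4 ± 15.3 FPKM (SD, n = 2 each), and the log2 difference was 0.76 ± 0.76 (SE), which did not pass the test (adjusted p = 0.99991, limma). Hbegf made up 59.8% and 75.3% of the summed FPKM of the 6 ligands in proximal 2 and proximal 3, against 46.1% and 52.5% in distal 2 and distal 3. A second transcript with a shorter span (36512679 to 36515805) took 22.8% of the gene's FPKM in proximal 2 and 10.8% in distal 2, and was listed at 0 in both libraries numbered 3.

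Areg encodes amphiregulin, which is induced by many stimuli in epithelial and stromal cells. Its gene lies on chromosome 5 at 91139599 to 91148432 (plus strand), in a cluster of family genes. Ereg lies there at 91074622 to 91093646 (plus strand) and Btc at 91357261 to 91402994 (minus strand). Areg gave 0.392 FPKM in proximal 2 and 7.83 FPKM in proximal 3, against 4.54 FPKM in distal 2 and 7.91 FPKM in distal 3. Proximal 2 lay apart from the other 3 libraries, with bounds of 0.156 to 0.629 FPKM in the deposited table and an estimated 11 fragments, against 227.6 in proximal 3. Proximal stroma averaged 4.11 ± 5.26 FPKM and distal stroma 6.23 ± 2.38 FPKM (SD, n = 2 each), and the log2 difference was -1.003 ± 0.94 (SE; adjusted p = 0.99991, limma). Within a number, the log2 difference of proximal minus distal was -1.99 in the libraries numbered 2 and -0.01 in those numbered 3.

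The promoter of Areg is shown because this gene spans the widest range of the tested family members. The sequence is from RefSeq (GRCm38.p6), chr5:91139349-91139648, plus strand, from 250 bases before to 50 bases after the start of the gene. Of the 9 genes, 5 matched an entry of that table (Areg, Btc, Tgfa, Egfr and Erbb2). The promoters of Egfr (chr11:16751953-16752252, plus strand) and Erbb2 (chr11:98412234-98412533, plus strand) are shown beside it, as those of the tested receptors. Capitals mark motif matches on either strand, and the matches do not overlap one another. The TATA box was searched as TATAAA. The GC box was searched as GGGCGG. The site of the AP-1 factors was searched as TGANTCA. The CRE, the cyclic AMP response element, was searched as TGACGTCA. The site of the EGR factors was searched as GCGTGGGCG.
Areg: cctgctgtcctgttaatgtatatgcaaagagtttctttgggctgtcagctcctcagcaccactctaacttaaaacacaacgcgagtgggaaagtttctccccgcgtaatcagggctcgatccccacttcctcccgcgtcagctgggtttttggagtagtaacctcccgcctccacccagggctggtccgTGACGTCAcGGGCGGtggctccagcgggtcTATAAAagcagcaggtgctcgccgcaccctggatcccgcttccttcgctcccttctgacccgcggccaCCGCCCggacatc
Egfr: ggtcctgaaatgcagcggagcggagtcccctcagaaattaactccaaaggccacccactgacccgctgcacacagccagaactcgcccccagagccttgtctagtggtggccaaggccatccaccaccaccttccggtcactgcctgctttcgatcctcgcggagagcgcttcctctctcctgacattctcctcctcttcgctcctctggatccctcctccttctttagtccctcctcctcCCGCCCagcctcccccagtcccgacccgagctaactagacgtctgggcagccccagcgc
Erbb2: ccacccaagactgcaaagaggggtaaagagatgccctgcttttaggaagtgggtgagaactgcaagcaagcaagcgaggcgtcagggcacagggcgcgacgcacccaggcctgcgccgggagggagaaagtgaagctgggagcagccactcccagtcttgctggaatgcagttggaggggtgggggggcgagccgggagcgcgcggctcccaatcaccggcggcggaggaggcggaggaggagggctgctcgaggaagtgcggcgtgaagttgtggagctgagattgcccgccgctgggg

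The Areg promoter held a CRE match whose first base lies at -61, a GC box at -52, a TATA box at -31 and a GC box at 38, counted from the start. The Egfr promoter held a GC box at -9, and the Erbb2 promoter held none of the 5 motifs. Of 32851 promoters of this length, 1.8% held the CRE letters, 13.6% the TATA box, 35.7% the GC box, 7.8% the AP-1 letters and 0.6% the EGR letters. A match describes letters and is not evidence of binding.

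Ereg encodes epiregulin and was the lowest of the 9 genes in both libraries numbered 2. It gave 0.0272 FPKM in proximal 2 and 1.26 FPKM in proximal 3, against 0.0667 FPKM in distal 2 and 0.485 FPKM in distal 3. These values correspond to an estimated 3.0 and 143.7 fragments in the proximal libraries and 8.0 and 65.1 fragments in the distal libraries. Only proximal 3 passed 1 FPKM. Btc, which encodes betacellulin, gave 0.187 FPKM in proximal 2 and 1.26 FPKM in proximal 3, against 0.423 FPKM in distal 2 and 0.493 FPKM in distal 3. It too passed 1 FPKM in proximal 3 alone, and its regions overlapped.

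Tgfa encodes TGF-alpha, a ligand of EGFR, and lies on chromosome 6 at 86195223 to 86275719 (plus strand). It gave 3.29 FPKM in proximal 2 and 6.15 FPKM in proximal 3, against 5.51 FPKM in distal 2 and 12.0 FPKM in distal 3. It was lower in the proximal library within both numbers, with log2 differences of -0.60 (number 2) and -0.87 (number 3), but proximal 3 lay above distal 2. The log2 difference between regions of -0.73 ± 0.55 (SE) did not pass the test (unadjusted p = 0.234, adjusted p = 0.99991, limma), and its unadjusted p was the smallest of the 6 tested genes. All of the FPKM fell on 1 of the 2 listed transcripts.

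Nrg1 encodes neuregulin 1, a ligand of ErbB3 and ErbB4, and lies on chromosome 8 at 31814551 to 32884029 (minus strand). It had the narrowest log2 range of the 6 tested genes, with 11.7 FPKM in proximal 2 and 14.5 FPKM in proximal 3, against 11.2 FPKM in distal 2 and 15.5 FPKM in distal 3. The log2 difference was -0.02 ± 0.38 (SE; adjusted p = 0.99991, limma), with a 95% interval of -0.988 to 0.958. Of its 7 named transcripts 4 had FPKM above 0. The transcript at 31818028 to 32009491 took 44.7% and 59.7% of the gene in proximal 2 and proximal 3, against 64.6% and 53.8% in distal 2 and distal 3. A transcript at 31837205 to 31918203 was listed at 2.36 FPKM in proximal 2 and at 0 in the other 3 libraries.

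Egfr encodes the receptor of EGF, amphiregulin and TGF-alpha and lies on chromosome 11 at 16752203 to 16918158 (plus strand). It gave 17.1 FPKM in proximal 2 and 35.97 FPKM in proximal 3, against 28.6 FPKM in distal 2 and 34.8 FPKM in distal 3. Proximal 2 was the lowest, and the other 3 libraries lay close together. Proximal stroma averaged 26.5 ± 13.4 FPKM and distal stroma 31.7 ± 4.35 FPKM (SD, n = 2 each), and the log2 difference was -0.33 ± 0.46 (SE; adjusted p = 0.99991, limma). Proximal 2 minus distal 2 gave -0.71 on the log2 scale, and proximal 3 minus distal 3 gave 0.05.

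The FPKM of Egfr was divided between a full-length and a short transcript. Their annotated counterparts (GENCODE M21, GRCm38) have 28 and 16 exons and share the ends of the first 15. In exon 16 the short one runs on past position 16887185 into the following intron, while the full-length one is spliced to the next exon. The short one therefore ends before the exon that encodes the membrane-spanning segment, with 655 coding codons against 1210. The coding letters on each side of that point are shown because they tell the transcripts apart. Lower case marks the shared bases (chr11:16887141-16887185, plus strand), and capitals mark the first bases of each transcript's own sequence, from 16889913 to 16889972 in the full-length and from 16887186 to 16887225 in the short transcript.
Egfr full-length: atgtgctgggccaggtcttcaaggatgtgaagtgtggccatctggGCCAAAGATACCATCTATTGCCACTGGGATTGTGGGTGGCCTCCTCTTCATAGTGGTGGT
Egfr short: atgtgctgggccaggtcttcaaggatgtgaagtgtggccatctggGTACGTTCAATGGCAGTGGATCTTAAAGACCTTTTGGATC

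The full-length transcript gave 9.15 FPKM in proximal 2 and 25.4 FPKM in proximal 3, against 12.8 FPKM in distal 2 and 23.5 FPKM in distal 3. The short transcript gave 7.94 FPKM in proximal 2 and 10.6 FPKM in proximal 3, against 15.9 FPKM in distal 2 and 11.3 FPKM in distal 3. The short transcript thus made up 46.5% and 29.4% of Egfr in the proximal libraries and 55.5% and 32.6% in the distal libraries. Its share was lower in both libraries numbered 3 than in both numbered 2, and the regions overlapped. The deposited short transcript has 473 bases past the splice point, so fragments of unspliced Egfr RNA in that stretch would count toward it, and their part was not tested.

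**Figure D2:**
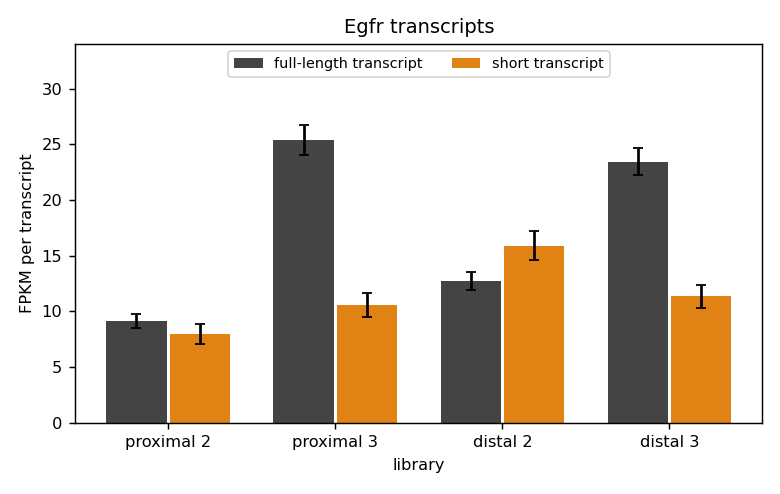
FPKM of the full-length (dark) and short (orange) Egfr transcripts in each library; bars are the deposited values and error bars the deposited lower and upper bounds. The full-length transcript stands at 25.4 and 23.5 FPKM in proximal 3 and distal 3, against 9.15 and 12.8 FPKM in proximal 2 and distal 2, while the short transcript stays between 7.94 and 15.9 FPKM.

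Erbb2 encodes the ligandless partner receptor ErbB2 and lies on chromosome 11 at 98412470 to 98437716 (plus strand). It gave 5.98 FPKM in proximal 2 and 4.38 FPKM in proximal 3, against 4.75 FPKM in distal 2 and 3.85 FPKM in distal 3. It was higher in the proximal library within both numbers, by 0.28 (number 2) and 0.15 (number 3) on the log2 scale, and the regions overlapped. The log2 difference between regions was 0.21 ± 0.42 (SE; adjusted p = 0.99991, limma), with a 95% interval of -0.847 to 1.28. Egfr exceeded Erbb2 by a ratio of 2.86 and 8.21 in proximal 2 and proximal 3, against 6.02 and 9.04 in distal 2 and distal 3. These ratios include the short Egfr transcript. The full-length transcript alone also lay above Erbb2 in each library, by smaller ratios.

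Erbb3 encodes the neuregulin receptor ErbB3 and lies on chromosome 10 at 128567523 to 128589652 (minus strand). It was the lowest of the 3 receptors, with 0.206 FPKM in proximal 2 and 0.335 FPKM in proximal 3, against 0.129 FPKM in distal 2 and 0.138 FPKM in distal 3. These values correspond to an estimated 22.0 and 36.9 fragments in the proximal libraries and 14.9 and 18 in the distal libraries. Both proximal values lay above both distal values, as they did for 13% of the tested genes, but the deposited bounds of proximal 2 (0.118 to 0.294 FPKM) and distal 3 (0.0731 to 0.204 FPKM) overlapped. ErbB4, the remaining receptor of the family, was listed at 0 in proximal 2, distal 2 and distal 3 and at 0.0937 FPKM in proximal 3.

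Between regions, 0 of the 6 tested genes passed the test in either direction (limma), as did 0% of all 11271 tested genes, with a smallest adjusted p of 0.198 over all genes. Before adjustment, 356 genes (3.16%) had a p under 0.05, and 0 of these 6 did. The log2 difference was above 0 for 2 of the 6 (Hbegf and Erbb2), against 60.4% of tested genes. Over all tested genes the median was 0.09 and moved to -0.03 under quantile normalization and -0.01 under median ratio scaling, where 46.8% and 48.6% of genes lay above 0. The 6 tested members kept their signs under both. Both proximal values exceeded both distal values for 0 of the 6, against 13% of tested genes, and lay below them for 0 of the 6, against 8.64%. With 2 libraries per region, the smallest two-sided p of an exact permutation test is 0.333. The sign of 4 tested genes changed when 1 library was left out. Without proximal 2 the log2 difference was 0.33 for Areg, 0.18 for Egfr and 0.13 for Nrg1. Without distal 3 it was 0.20 for Nrg1, and without proximal 3 it was -0.23 for Hbegf. Each such fit leaves a region with a single library number, so the difference by number enters the region difference. Within a number, Hbegf was higher in the proximal library in both (0.31 for number 2 and 1.21 for number 3). Areg was lower in both (-1.99 and -0.01), whereas Egfr and Nrg1 changed sign between the numbers. Erbb2 (0.03 to 0.40) and Tgfa (-1.24 to -0.23) kept their sign whichever library was left out.

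**Figure D3:**
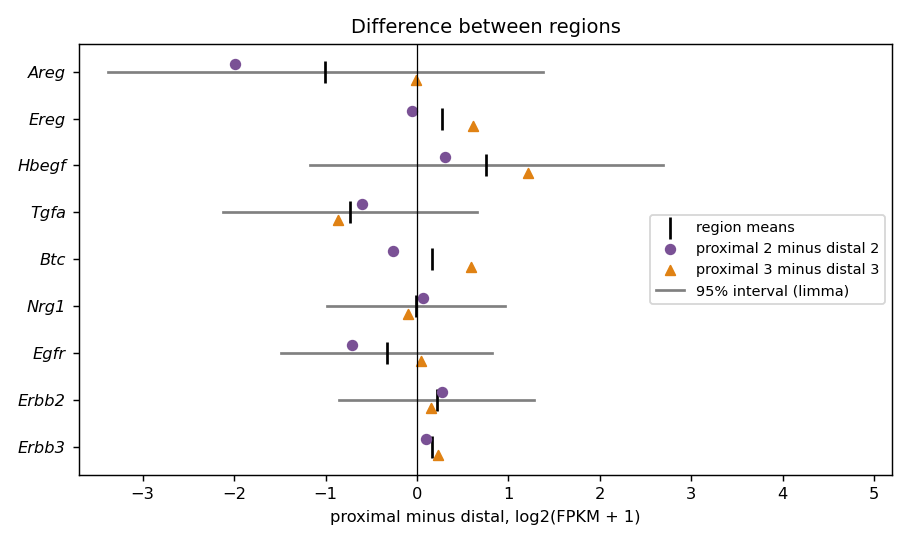
Difference of proximal minus distal on the log2(FPKM + 1) scale for the 9 genes; black ticks are differences of the region means, circles and triangles the differences within libraries numbered 2 and 3, and grey lines the 95% intervals of limma for the 6 tested genes. Every interval includes 0, and the circle and triangle fall on opposite sides of 0 for Ereg, Btc, Nrg1 and Egfr.

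By library number the family was less evenly spread. Both libraries numbered 3 lay above both numbered 2 for 5 of the 6 tested genes (Areg, Hbegf, Tgfa, Nrg1 and Egfr), against 20.2% of all tested genes. They lay below for 1 of the 6 (Erbb2), against 50.4% of all tested genes. The shares of all tested genes above and below were 30.6% and 35.3% after quantile normalization, and 33.6% and 33.7% after median ratio scaling. The mean log2 difference of number 3 minus number 2 was 1.68 for Areg, 1.53 for Hbegf, 0.87 for Tgfa, 0.65 for Egfr, 0.36 for Nrg1 and -0.31 for Erbb2, beside a median of -0.33 over all tested genes. Quantile normalization and median ratio scaling moved that median to -0.04 and 0.01. The 5 genes had the same order under both, whereas Erbb2 turned to 0.15 and 0.02. A difference of at least 1 of the same sign in both regions was found for 1 of the 6 (Hbegf), against 14.9% of tested genes. Among the untested genes, Ereg and Btc had the same order as the 5 and Erbb3 overlapped. The Btc step in distal stroma was small, at 0.423 FPKM in distal 2 and 0.493 FPKM in distal 3. The deposited bounds of distal 3 (0.343 to 0.643 FPKM) include the distal 2 value.

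**Figure D4:**
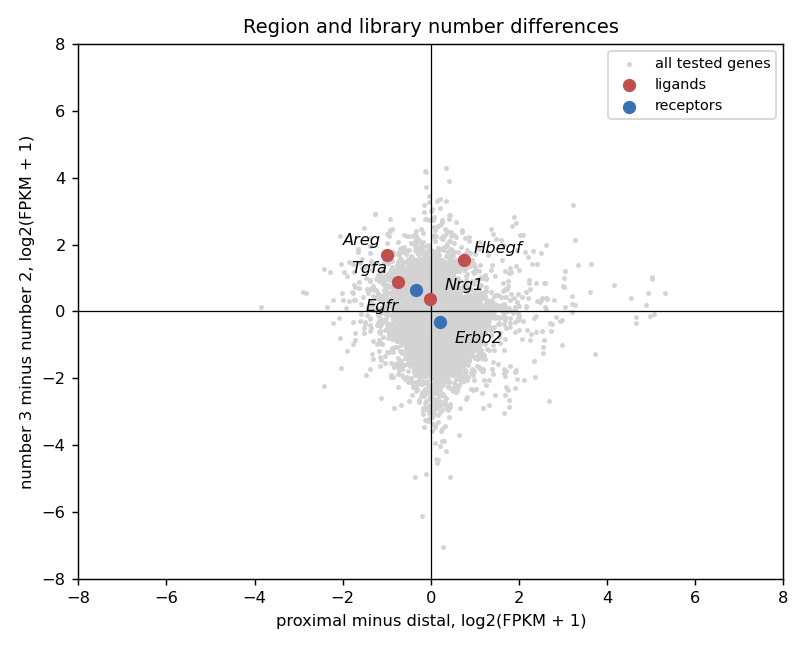
Each point is a tested gene, with the difference of proximal minus distal on the horizontal axis and the difference of number 3 minus number 2 on the vertical axis, both on the log2(FPKM + 1) scale. The 4 tested ligands (red) and Egfr lie between 0.36 and 1.68 on the vertical axis, and Erbb2 lies at -0.31, which turned to 0.15 and 0.02 under quantile normalization and median ratio scaling.

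The size of the number difference was not the same in both regions. Hbegf was 4.07 times as high in proximal 3 as in proximal 2, and 2.17 times as high in distal 3 as in distal 2. Areg was 19.9 times as high in proximal 3 as in proximal 2, and 1.74 times as high in distal 3 as in distal 2. Tgfa gave ratios of 1.87 in proximal and 2.19 in distal stroma, Nrg1 1.23 and 1.39, and Egfr 2.11 and 1.22. Each is a ratio of 1 library to 1 library and carries no test.

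Markers of other cell types also moved between libraries. The summed FPKM of 14 epithelial markers was 90.7 and 606.3 in proximal 2 and proximal 3, against 55.4 and 141.3 in distal 2 and distal 3. That of the 6 ligands was 38.8 and 125.5 in proximal 2 and proximal 3, against 40.3 and 76.6 in distal 2 and distal 3. Proximal 3 was highest and distal 3 next in both sums. Hbegf made up 46.1% (distal 2) to 75.3% (proximal 3) of the ligand sum. By gene, Hbegf, Ereg and Btc were highest in proximal 3, and Areg, Tgfa and Nrg1 in distal 3. Of 12 tested epithelial markers, 9 lay higher in both libraries numbered 3, beside 20.2% of all tested genes (33.6% after median ratio scaling), and 3 lay higher in both proximal libraries, beside 13%. Keratin 19 (Krt19) gave 22.0 FPKM in proximal 2 and 156 FPKM in proximal 3, against 7.93 FPKM in distal 2 and 15.2 FPKM in distal 3. None of the 14 was at 0 in all 4 libraries. The part of epithelial RNA in the ligand values was not tested, and in sorted bulk samples more cells of a type and more RNA per cell cannot be told apart.

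Among markers of further cell types, those of smooth muscle and pericytes (7 genes) summed to 268 FPKM in proximal 2 and 181 FPKM in proximal 3, against 248.7 FPKM in distal 2 and 191 FPKM in distal 3. Desmin (Des), an intermediate filament of muscle cells, gave 128 FPKM in proximal 2 and 83.5 FPKM in proximal 3, against 115 FPKM in distal 2 and 88.2 FPKM in distal 3. This sum and Des were lower in the libraries numbered 3. Of the 6 tested markers of this list, 2 lay lower and 0 higher in both libraries numbered 3. Over all tested genes 50.4% and 20.2% did, or 33.7% and 33.6% after median ratio scaling. The median log2 difference of number 3 minus number 2 was -0.25 in this list and -0.33 over all tested genes. Pdgfrb, also abundant, gave 64.3 FPKM in proximal 2 and 58.4 FPKM in proximal 3, against 33.9 FPKM in distal 2 and 36.6 FPKM in distal 3. By region, 2 of the 6 tested markers (Pdgfrb and Myh11) had both proximal values above both distal values, and 1 (Cspg4) had both below. Over all tested genes these shares were 13% and 8.64%. Cspg4 held 7.25 and 7.73 FPKM (proximal, numbers 2 and 3) or 15.1 and 17.7 FPKM (distal). Acta2, also abundant, was lower in the proximal library of each number, but its regions overlapped. Its proximal values were 53.5 and 22.9 FPKM, its distal values 75.8 and 42.7 FPKM. The part of these markers in the result was not tested. The summed FPKM of 6 endothelial markers was 9.01 and 8.38 in proximal 2 and proximal 3, against 9.41 and 8.43 in distal 2 and distal 3. That of 8 leukocyte markers did not exceed 3.17, with the T cell gene Cd3e at 0 in all 4 libraries. That of 8 Schwann cell markers, listed because Schwann cells use ErbB3, did not exceed 2.94. The 11 dissociation and heat shock genes summed to 20413 FPKM in proximal 2 and 13013 FPKM in proximal 3, against 14524 FPKM in distal 2 and 7070 FPKM in distal 3, the opposite order by number to the ligands. By gene, 5 of the 11 lay lower and 1 lay higher in both libraries numbered 3. Over all tested genes 50.4% and 20.2% did (33.7% and 33.6% after median ratio scaling). Between regions, 5 of the 11 lay higher in both proximal libraries, beside 13% of all tested genes. Their part in the result was not tested.

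**Figure D5:**
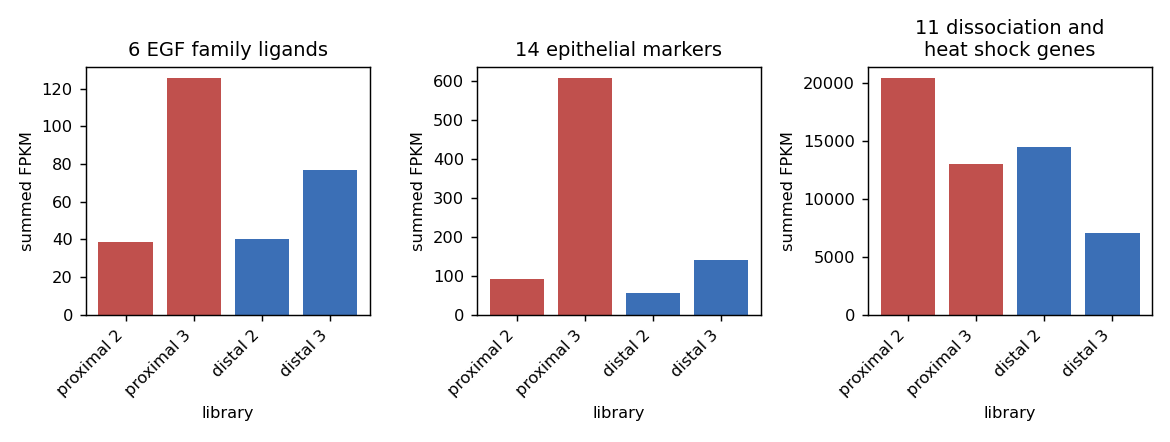
Summed FPKM of the 6 ligands, 14 epithelial markers and 11 dissociation and heat shock genes in each library (proximal red, distal blue). The sums of ligands and of epithelial markers are highest in proximal 3 (125.5 and 606.3 FPKM) and next in distal 3. That of the dissociation and heat shock genes is highest in proximal 2. By gene, the ligands Areg, Tgfa and Nrg1 are highest in distal 3, and Hbegf, Ereg and Btc in proximal 3.

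The rest of the pathway gave no call between regions in any list. Of the other ligands, Egf, which gives the family its name, did not exceed 0.986 FPKM, epigen (Epgn) did not exceed 0.389 FPKM, and Nrg4 was listed at 0 throughout. Nrg2, a further neuregulin, had 35.2 FPKM in proximal 2 and 0.276 FPKM in proximal 3, against 39.4 FPKM in distal 2 and 0.346 FPKM in distal 3. Its single transcript with FPKM above 0 was thus high in both libraries numbered 2 and near 0 in both numbered 3, whatever the region.

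Among 8 tested genes of ligand shedding, 0 passed in either direction, with a median log2 difference of -0.12 against 0.09 over all tested genes. Adam17, the main protease that frees EGFR ligands (chosen after its values were seen), gave 10.9 FPKM in proximal 2 and 9.40 FPKM in proximal 3, against 12.2 FPKM in distal 2 and 12.9 FPKM in distal 3. Timp3, an inhibitor of ADAM17 in the matrix, gave 243 FPKM in proximal 2 and 289 FPKM in proximal 3, against 146 FPKM in distal 2 and 185 FPKM in distal 3, and the log2 difference was 0.69 ± 0.32 (SE; adjusted p = 0.99991, limma). Adam9 and Rhbdf2, which encodes a partner that ADAM17 needs to mature, had log2 differences of -0.37 ± 0.41 and -0.30 ± 0.41 (SE).

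Among 15 tested genes of receptor turnover and inhibition, 0 passed in either direction, with a median of -0.18. Cblb, Socs4 and Cbl had the largest differences, at -0.59 ± 0.43, -0.49 ± 0.51 and -0.40 ± 0.46 (SE) on the log2 scale. The products of Cbl and Cblb are ubiquitin ligases that mark activated EGFR for removal. Errfi1 (chosen after its values were seen), a feedback inhibitor that EGFR signalling induces, gave 218 FPKM in proximal 2 and 1430 FPKM in proximal 3, against 473 FPKM in distal 2 and 1092 FPKM in distal 3. It had the same order by number as Areg, with proximal 2 lowest. In the whole list of 15, 3 genes lay higher and 7 lower in both libraries numbered 3. Over all tested genes 20.2% and 50.4% did (33.6% and 33.7% after median ratio scaling).

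Among 22 tested adaptors and kinases and 19 tested feedback and response genes of the ERK kinases, 0 passed in either direction, with medians of 0.02 and 0.02. In the first list Stat3 (-0.74 ± 0.63), Mapk3 (0.59 ± 0.52) and Braf (-0.40 ± 0.40) had the largest log2 differences (SE). In the second list these were Spry4 (-0.79 ± 0.35), Dusp5 (-0.74 ± 0.41) and Dusp4 (0.72 ± 0.43). Spry4, an inhibitor of receptor kinase signalling, gave 20.5 FPKM in proximal 2 and 15.7 FPKM in proximal 3, against 29.3 FPKM in distal 2 and 34.6 FPKM in distal 3. Dusp5, a phosphatase of ERK, gave 21.0 FPKM in proximal 2 and 29.4 FPKM in proximal 3, against 32.3 FPKM in distal 2 and 54.8 FPKM in distal 3. Both proximal values of each lay below both distal values. Dusp4, a phosphatase of MAP kinases, had the opposite order, with 5.69 FPKM in proximal 2 and 8.27 FPKM in proximal 3, against 3.36 FPKM in distal 2 and 4.22 FPKM in distal 3. In the whole list 2 of 19 genes (Dusp4 and Dusp6, the second chosen after its values were seen) lay above and 3 below, beside 13% and 8.64% of all tested genes.

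Of the 19 response genes, 6 lay higher and 6 lower in both libraries numbered 3, beside 20.2% and 50.4% of all tested genes, or 33.6% and 33.7% after median ratio scaling. The following were chosen after their values were seen. Plaur, the urokinase receptor, stood at 159 and 90.0 FPKM in proximal 3 and distal 3, against 12.4 and 20.5 FPKM in proximal 2 and distal 2. Spry1, an inhibitor of receptor kinase signalling, stood at 16.2 and 18.3 FPKM in proximal 3 and distal 3, against 214 and 153 FPKM in proximal 2 and distal 2.

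Among 7 tested cofactors of HB-EGF and neuregulin, 0 passed in either direction, with a median of -0.30. Gpc1, a heparan sulfate proteoglycan, gave 383 FPKM in proximal 2 and 185 FPKM in proximal 3, against 487 FPKM in distal 2 and 466 FPKM in distal 3, and the log2 difference was -0.84 ± 0.44 (SE; adjusted p = 0.99991, limma). Sdc4 and Nrp1 had log2 differences of -0.69 ± 0.44 and -0.57 ± 0.36 (SE).

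For each tested family gene that spanned at least 1 on the log2 scale, the 3 most similar of 7428 tested genes with a mean of at least 5 FPKM were found by the distance between centred log2(FPKM + 1) values over the 4 libraries. For Hbegf these were Sgk1 (distance 0.125), Dll1 (0.179) and Akap12 (0.239). For Egfr they were Hr (0.046), Il6 (0.054) and Rbbp8 (0.075), and for Tgfa Itgav (0.105), Nptx2 (0.150) and Kctd11 (0.192). For Areg they were Hmga1 (0.299), its near-identical copy Hmga1b (0.434), whose separate value is uncertain, and Gch1 (0.454). These distances rest on 4 libraries and carry no test.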

How the data were processed

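RNA was measured by sequencing in 4 libraries of sorted mouse prostate stroma. Per the labels' protocols, cDNA came from a PCR-based SMART-Seq kit; strand is not kept, so overlapping genes are uncertain. The tools named are Cufflinks 0.0.6, TopHat2 0.6 and bcl2fastq 1.8.3, and the build is mm10, per the submitters' processing notes.

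The authors deposited FPKM per transcript with lower and upper bounds and a coverage signal. The 63241 transcripts carry no gene symbol. They were named by position against GENCODE M21 (GRCm38, the mm10 assembly) where span overlap times length similarity reached 0.8 with no rival gene within 0.8 of that score, where both ends lay within 100 bases of exons of 1 gene, or where 1 gene overlapped by at least 0.5 and any other by less than 0.25. This named 55612 transcripts (87.94%). FPKM was summed per gene, and 7 genes with a failed or capped estimate were left out.

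FPKM times length (less an offset of 170 to 200 bases) of single-transcript genes fell near multiples of 1 value per library. For transcripts of under about 5 fragments, 88.1% to 90.1% of the values lay within 0.1 of a whole number. This gave the fragment estimates, which cover counting error only. The value was sought in a fixed range, since smaller divisors also give whole numbers.

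Regions were compared with limma 3.58.1 (R 4.3.3) on log2(FPKM + 1), with region as the only term and a mean trend, two-sided, Benjamini-Hochberg over 11271 genes, threshold 0.05. It understates the change of low genes. It was tested on simulated data. The simulated libraries were independent, with no difference by library number and with larger changes than those of the tested members. Recovery of the changed genes was required only in a run with a spread well below that of the data. That check therefore does not cover smaller changes, recovery at the real spread or the number difference of these data. Naming, sums and plots used matplotlib 3.10.9, pandas 2.3.3 and numpy 2.4.6 in Python 3.11.15. Alternatives were another pseudocount, other filters, scalings and naming, a block by library number and leaving out each library.

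The members and lists were chosen with earlier results of these data known. Named genes were the 9 members, the 3 largest differences per pathway list where the higher region averaged 5 FPKM or more, abundant markers and the closest profiles.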

Additional observations from a re-analysis of the deposited data

How the results depend on the processing

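The region differences of the 9 genes kept their sign under another pseudocount, both filters, both scalings, other naming and the block, where a value could be had, and none was called under any alternative run. With a pseudocount of 0.1, Erbb3 moved to 0.64 from 0.16. Leaving out 1 library at a time gave log2 differences of -2.34 to 0.33 for Areg and -0.85 to 0.18 for Egfr. The ranges were -0.23 to 1.75 for Hbegf and -0.23 to 0.20 for Nrg1, so their sign changed with the library left out. The untested Ereg and Btc turned to -0.29 and -0.30 without proximal 3. These fits hold fewer libraries and leave a region with a single library number. The difference by number therefore enters them, and a changed sign need not mean that 1 library carries the direction. Among all genes, 0 were called in the reported fit, and between 0 and 40 with 1 library left out (40 without distal 2 and 26 without distal 3). With the library number as a replicate block, 465 genes were called, 314 higher and 151 lower in proximal stroma, none of them among the 9; the smallest adjusted p of a tested member was 0.0933 (Tgfa, limma). With the block, 2464 genes had an unadjusted p-value under 0.05. Tgfa and Hbegf were among them, with unadjusted limma p-values of 0.0071 and 0.017 and adjusted p of 0.0933 and 0.140 (limma). Libraries of one number were more alike across genes (Pearson's r of 0.952 for both pairs) than libraries of one region (0.869 proximal, 0.911 distal), and no label says what a number marks. Areg, Hbegf, Tgfa, Nrg1 and Egfr stayed higher in number 3 under both scalings and the other pseudocount, which were chosen for this order after seeing the data. The lowest library held an estimated 3.0 fragments of Ereg, 11 of Areg, 14 of Btc and 14.9 of Erbb3, which limits their precision. Untested genes could not be fitted under the stricter filter or either scaling.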
